A study of Mus musculus with 9 samples.

Results

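The genes of the NF-κB subunits and of the IκB proteins were followed across 9 RNA-seq libraries of mouse cells. The 10 genes were listed by name from the 56289 genes of the table, with earlier results of these data known. They comprised 5 subunit genes (Nfkb1, Nfkb2, Rel, Rela and Relb) and 5 IκB genes (Nfkbia, Nfkbib, Nfkbie, Nfkbiz and Bcl3). All 10 passed the filter on low values, which kept 25417 genes. The libraries came from RAW264.7, a macrophage-like line of BALB/c origin. They fell into 3 groups of 3: untreated cells (Con), cells given TNF-α (recombinant human protein, 20 ng/ml) and cells given the same TNF-α with WBT (1.0 μg/ml), both for 24 h. WBT is Wang Bi tablet, a herbal medicine for rheumatoid arthritis. The sample labels call this drug WBP, which was taken to be WBT. The study calls the 3 libraries of a group biological replicates, and the labels do not say how the cultures were kept apart. If they were not separate, the p-values measure technical spread only.

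NF-κB is a family of dimeric transcription factors. RelA, RelB and c-Rel carry the domain that activates transcription, while Nfkb1 and Nfkb2 encode the precursors p105 and p100, which are processed to the DNA-binding subunits p50 and p52. In resting cells IκB proteins hold the dimers in the cytoplasm. TNF-α binding to its receptor activates the IκB kinase, the IκB proteins are degraded, and the released dimers enter the nucleus, where their targets include genes of several subunits and inhibitors. Bcl3 and Nfkbiz encode IκB proteins that act in the nucleus.

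Values were deposited as FPKM, fragments corrected for the length of the transcript and for library depth, which can therefore be compared between genes. Fold changes are differences in log2(FPKM + 0.1) from limma, which understate the change of low genes. A gene was called at a Benjamini-Hochberg adjusted p under 0.05 over the 25417 genes. The thresholds of the study were fold changes over 2 at an unadjusted p under 0.05. Depth was estimated at 16900000 to 26160000 fragments per library from the step that 1 fragment adds to FPKM, and it put 133 to 3934 fragments on each of the 10 genes per library. The labelled cell type was not borne out by its defining markers: of 18 macrophage genes only Cd14 lay above 1 FPKM in all libraries, and 7, among them Ptprc, Spi1, Itgam and Adgre1, were listed at 0 in all of them. By contrast 12 of 14 fibroblast genes and 8 of 12 Schwann cell genes lay above 1 FPKM throughout. The summed FPKM of the macrophage list was 6.12 to 7.41 in Con, 7.03 to 8.12 after TNF-α and 7.16 to 8.50 after TNF-α+WBT. That of the Schwann cell list was 925 to 982, 751 to 813 and 817 to 846, and that of the fibroblast list 5345 to 5702, 5635 to 5926 and 5616 to 5727. The part of these shifts in the results was not tested. In such bulk libraries fewer cells of a type and less RNA per cell cannot be told apart.

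The proximal promoters are shown first because NF-κB binds a short DNA element, the κB site. RefSeq promoter sequences (GRCm38.p6) were found for 7 of the 10 genes, in 9 windows that run from 250 bases before the start site to 50 after it. Nfkb2 had 3 of these windows. The κB consensus GGGRNNYYCC (R is A or G, Y is C or T, N is any base) was searched on both strands. It occurred in 7 of the 9 windows, and in 8.46% of the 32851 promoter windows of the same length. By gene it occurred in 5 of the 7, and in 9.55% of the 27025 genes with such windows. The looser pattern GGGNNNNNCC, which contains the consensus, occurred in 8 of the 9 windows and in 50.8% of all windows. The windows of 4 members that passed the fold threshold under TNF-α, and that of Rela, which did not, are printed 5′ to 3′ on the strand of the gene from 250 bases before the start site to 20 after it, with the consensus in capitals. No window of Nfkb1, Relb or Nfkbiz was used here.
Nfkbia, minus strand, chr12:55492628-55492897: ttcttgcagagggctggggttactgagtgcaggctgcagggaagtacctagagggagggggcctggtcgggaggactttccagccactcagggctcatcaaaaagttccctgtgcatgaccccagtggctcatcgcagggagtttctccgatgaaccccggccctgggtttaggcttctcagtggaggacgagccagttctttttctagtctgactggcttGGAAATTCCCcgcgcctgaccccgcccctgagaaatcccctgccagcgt
Nfkb2, plus strand, chr19:46304487-46304756: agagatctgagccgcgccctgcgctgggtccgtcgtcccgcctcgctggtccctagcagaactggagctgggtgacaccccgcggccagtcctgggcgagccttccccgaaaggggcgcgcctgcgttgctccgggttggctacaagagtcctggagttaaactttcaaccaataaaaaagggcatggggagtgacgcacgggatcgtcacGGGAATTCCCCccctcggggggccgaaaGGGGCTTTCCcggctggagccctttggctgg
Nfkbie, plus strand, chr17:45555450-45555719: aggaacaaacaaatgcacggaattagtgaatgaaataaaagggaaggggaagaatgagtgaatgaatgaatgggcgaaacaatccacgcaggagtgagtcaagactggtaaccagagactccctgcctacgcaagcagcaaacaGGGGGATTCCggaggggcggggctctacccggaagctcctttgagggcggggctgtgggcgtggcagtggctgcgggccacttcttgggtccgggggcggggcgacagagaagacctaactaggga
Bcl3, minus strand, chr7:19822736-19823005: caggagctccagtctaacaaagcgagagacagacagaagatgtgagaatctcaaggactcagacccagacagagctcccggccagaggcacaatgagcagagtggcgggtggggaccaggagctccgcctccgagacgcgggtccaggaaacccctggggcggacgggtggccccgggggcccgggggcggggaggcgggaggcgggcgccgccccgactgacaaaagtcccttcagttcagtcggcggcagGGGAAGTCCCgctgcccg
Rela, plus strand, chr19:5637291-5637560: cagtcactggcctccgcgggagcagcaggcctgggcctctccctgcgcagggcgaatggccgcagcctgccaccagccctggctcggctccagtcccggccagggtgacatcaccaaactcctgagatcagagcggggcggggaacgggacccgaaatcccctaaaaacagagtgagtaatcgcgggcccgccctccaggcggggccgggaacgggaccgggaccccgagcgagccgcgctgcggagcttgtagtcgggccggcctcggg

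In Nfkbia the match lay at -29 to -20. The first Nfkb2 window held GGGAATTCCC at -39 to -30, overlapped by a further match 1 base on, and GGGGCTTTCC at -11 to -2. In Nfkbie the match lay at -106 to -97, and in Bcl3 it lay just after the start site, at +3 to +12. Rel, whose window is not printed, held GGGAAATCCC at -92 to -83. The other Nfkb2 windows overlap each other, and both held GGGACTTTCC from the same genomic copy. The windows of Rela and Nfkbib held no match to the consensus. That of Rela held 3 matches to the looser pattern and that of Nfkbib 0. These are matches of letters in 1 short window per start site, and binding was not measured.

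In GENCODE M21 (GRCm38) Nfkb1 lies on chromosome 3 (135584655 to 135691547), Rel on 11 (23736847 to 23770970), Nfkbia on 12 (55489410 to 55492647), Nfkbiz on 16 (55811375 to 55838899) and Nfkbie on 17 (45555703 to 45563169). Chromosome 19 holds Nfkb2 (46304320 to 46312385) and Rela (5637483 to 5648130), and chromosome 7 holds Relb (19606217 to 19629438), Bcl3 (19808462 to 19822770) and Nfkbib (28758251 to 28767512). All are annotated as protein-coding genes, with 1 transcript in Rel and up to 10 in Nfkb1 and Relb.

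The untreated cells already contained RNA of all 10 genes. In Con the highest level was that of Nfkb1, at 50.7 ± 2.64 FPKM (SD, n = 3), followed by Rela at 39.4 ± 3.15, Nfkbia at 24.7 ± 1.64 and Nfkb2 at 20.7 ± 1.44. These 4 genes did not overlap in their libraries. The levels sum all annotated transcripts of a gene, and the order depends on this. In protein-coding transcripts only, the Con mean of Nfkb1 was 12.4 FPKM, below Rela (38.3), Nfkbia (24.0) and Nfkb2 (18.9). Such sums depend on how reads were divided among overlapping transcripts. Nfkbib (10.5 ± 0.885 FPKM) and Nfkbiz (9.54 ± 0.578 FPKM) overlapped each other. Relb, Bcl3 and Nfkbie lay lower, at means of 5.21, 4.81 and 4.78 FPKM, and could not be ranked among themselves. Rel was lowest, at 2.72 ± 0.0388 FPKM, although the protein-coding transcripts of Nfkbie overlapped it, at a Con mean of 2.41 FPKM. Under TNF-α the order changed at the top, with Nfkbia first at 80.3 ± 1.52 FPKM, apart from Nfkb1 at 65.8 ± 1.72. Nfkb2 (48.6 ± 1.94 FPKM) overlapped Rela (46.5 ± 1.97), Nfkbie (28.3 ± 5.64) overlapped Relb (23.5 ± 3.37), and Rel stayed lowest at 3.87 ± 0.0775. With TNF-α+WBT the first 2 places were the same, and Nfkb2 again overlapped Rela. Protein-coding transcripts of Nfkb1 averaged 12.2 FPKM under TNF-α and 13.2 with TNF-α+WBT, below those of Rela (45.6 and 45.1).

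**Figure D1:**
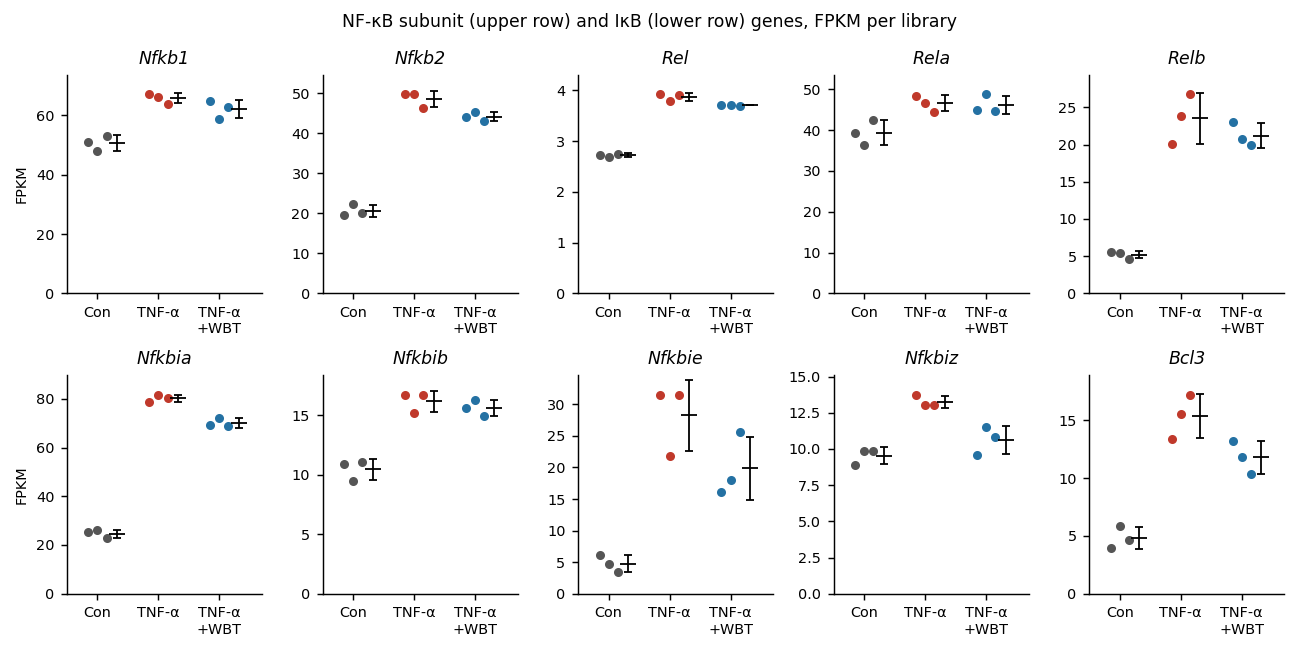
FPKM (vertical axes, from 0) of the 5 subunit genes (upper row) and the 5 IκB genes (lower row); points are the 3 libraries of each group and the bar beside them is the mean ± SD. All 10 genes lay higher in every TNF-α library than in every Con library, from a small step in Rela (36.2 to 42.5 against 44.5 to 48.4 FPKM) to a large one in Nfkbie (3.43 to 6.19 against 21.7 to 31.5 FPKM).

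To see how TNF-α altered the NF-κB system of these cells, the TNF-α libraries were compared with Con. Of the 10 members 9 rose and none fell at an adjusted p under 0.05, where 2.94% of all tested genes rose and 1.93% fell. At the thresholds of the study 5 members passed (Nfkbie, Relb, Nfkbia, Bcl3 and Nfkb2), against 2.42% of the tested genes in either direction. In all 10 genes the TNF-α libraries lay above the Con libraries without overlap, which held for 11.1% of the tested genes. The median log2 fold change was 0.93 over the members, 0.50 over the subunits and 1.67 over the IκB genes, and 0.00285 over all tested genes.

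Among the subunits the changes were largest in Relb, the partner of p52 in the non-canonical branch. It measured 5.51, 5.49 and 4.62 FPKM in the Con libraries, 20.01, 23.8 and 26.7 after TNF-α, and 23.0, 20.7 and 19.9 after TNF-α+WBT. Both treated groups lay above Con, and they overlapped each other. Relb rose by 2.15 ± 0.12 on the log2 scale under TNF-α (SE, adjusted p = 1.65e-05, limma), a 4.52-fold higher mean.

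Nfkb2, which encodes p100 and p52, was 19.6, 22.3 and 20.01 FPKM in Con, 49.7, 49.8 and 46.4 after TNF-α, and 44.1, 45.4 and 43.1 after TNF-α+WBT. The 3 groups did not overlap, with the TNF-α libraries on top. Its log2 fold change under TNF-α was 1.23 ± 0.06 (SE, adjusted p = 6.22e-06, limma). Exons of Nfkb2 overlap those of Psd over 299 bases and of AC114539.1 over 531 bases on the opposite strand (means of 14.5 and 3.19 FPKM over the 9 libraries), and the library kit is not described as keeping strand, so that reads in these bases cannot be assigned with certainty.

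Nfkb1, the gene of p105 and p50, was 51.0, 47.9 and 53.1 FPKM in Con, 67.1, 66.4 and 63.8 after TNF-α, and 64.9, 58.9 and 62.7 after TNF-α+WBT. The step was small but clear of the spread between libraries. It rose by 0.38 ± 0.05 on the log2 scale under TNF-α (SE, adjusted p = 0.00352, limma). When only transcripts annotated as protein-coding were summed, a setting added after the data had been seen, the change was -0.01 (adjusted p = 0.99), as described further on.

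Rel, the gene of c-Rel, was 2.72, 2.68 and 2.75 FPKM in Con, 3.92, 3.78 and 3.92 after TNF-α, and 3.71, 3.72 and 3.70 after TNF-α+WBT. The SD within a group was at most 0.0775 FPKM. The log2 fold change under TNF-α was 0.50 ± 0.07 (SE, adjusted p = 0.00568, limma). Rel was the only member with a single annotated transcript.

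Rela, the gene of the p65 subunit, was 39.4, 36.2 and 42.5 FPKM in Con, 48.4, 46.7 and 44.5 after TNF-α, and 44.9, 48.7 and 44.7 after TNF-α+WBT. It was the member that did not pass the adjusted threshold under TNF-α, at a log2 fold change of 0.24 (95% interval 0.10 to 0.39) with an unadjusted p of 0.005 and an adjusted p of 0.0814 (limma). It passed when the test was limited to genes that averaged 1 FPKM or more (adjusted p = 0.0488) and without the third Con library (adjusted p = 0.0462).

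The cytoplasmic inhibitors differed in how far they moved. Nfkbia encodes IκBα, the classical feedback inhibitor. It was 25.2, 26.0 and 22.8 FPKM in Con, 78.7, 81.7 and 80.4 after TNF-α, and 69.3, 72.3 and 68.8 after TNF-α+WBT. The 3 groups were apart from each other, and the SD within a group was at most 1.92 FPKM. Nfkbia rose by 1.70 ± 0.05 on the log2 scale under TNF-α (SE, adjusted p = 6.36e-07, limma), and its adjusted p was the smallest of the members.

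Nfkbie, the gene of IκBε, was 6.19, 4.73 and 3.43 FPKM in Con, 31.5, 21.7 and 31.5 after TNF-α, and 16.1, 18.0 and 25.6 after TNF-α+WBT. The treated groups overlapped each other, and with SDs of 5.64 and 5.01 FPKM their libraries spread more widely than those of the other members. Its log2 fold change under TNF-α was 2.56, the largest of the members, with an SE of 0.25 and an adjusted p of 0.000582 (limma).

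Nfkbib, the gene of IκBβ, was 10.9, 9.45 and 11.1 FPKM in Con, 16.7, 15.2 and 16.7 after TNF-α, and 15.6, 16.3 and 14.9 after TNF-α+WBT. It rose by 0.63 ± 0.07 on the log2 scale under TNF-α (SE, adjusted p = 0.00165, limma). The 95% interval of this change (0.46 to 0.79) lay below those of Nfkbia (1.58 to 1.81) and Nfkbie (1.99 to 3.13). Exons of Nfkbib share 42 bases with Sirt2 and 314 with Ccer2 on the opposite strand. Over the 9 libraries Sirt2 had a mean of 34.4 FPKM, above the level of Nfkbib, and Ccer2 a mean of 0.0315 FPKM.

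Of the genes of nuclear IκB proteins, Bcl3, whose protein binds p50 and p52 dimers, was 3.94, 5.82 and 4.68 FPKM in Con. It was 13.4, 15.5 and 17.2 after TNF-α, and 13.2, 11.8 and 10.4 after TNF-α+WBT. The 3 groups did not overlap, although the lowest TNF-α library and the highest TNF-α+WBT library lay close together. The log2 fold change under TNF-α was 1.67 ± 0.15 (SE, adjusted p = 0.000404, limma). Its antisense neighbour Gm16175 shares 161 exon bases and had a mean of 0.266 FPKM.

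Nfkbiz, the gene of IκBζ, was 8.87, 9.87 and 9.88 FPKM in Con, 13.8, 13.0 and 13.0 after TNF-α, and 9.59, 11.5 and 10.8 after TNF-α+WBT. The TNF-α libraries stood above both other groups, and the TNF-α+WBT libraries overlapped Con. Nfkbiz rose by 0.47 ± 0.08 on the log2 scale under TNF-α (SE, adjusted p = 0.00867, limma).

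**Figure D2:**
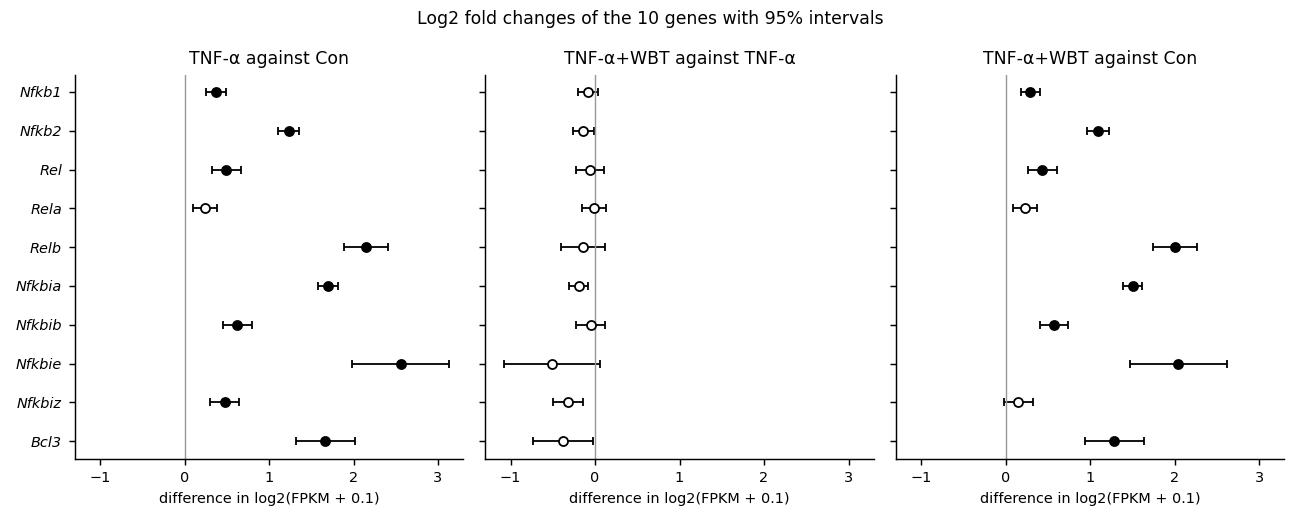
Log2 fold changes (differences in log2(FPKM + 0.1), horizontal axes) of the 10 genes with 95% intervals from limma in the 3 comparisons; filled points have an adjusted p under 0.05. Under TNF-α against Con 9 points are filled and in TNF-α+WBT against Con 8, while in TNF-α+WBT against TNF-α all 10 points lie at or left of 0 and none is filled.

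Because the members moved by unequal amounts, the make-up of each set shifted. The summed FPKM of the 5 subunit genes was 119 ± 4.24 in Con, 188 ± 2.65 after TNF-α and 177 ± 3.27 after TNF-α+WBT (SD, n = 3). The sum of the 5 IκB genes was 54.3 ± 2.12, 153 ± 5.80 and 128 ± 3.74. The sum of the IκB genes was therefore the more changed of the pair. Within the subunits, Nfkb1 made up 41.8% to 43.2% in Con and 34.4% to 35.5% after TNF-α, and Rela 31.6% to 34.6% and 24.0% to 25.6%. The share of Nfkb2 was 16.3% to 19.5% in Con and 25.0% to 26.3% after TNF-α, and that of Relb 3.76% to 4.79% and 10.6% to 14.4%. The ranges of these 4 shares were apart between the groups. The shares use sums over all annotated transcripts, of which a minor part was protein-coding in Nfkb1. With TNF-α+WBT the shares of Nfkb1 (33.2% to 36.0%), Nfkb2 (24.4% to 25.6%), Rela (24.9% to 27.5%) and Relb (11.4% to 12.8%) overlapped those with TNF-α alone.

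The level of Relb per Rela was 0.109 to 0.151 in Con and 0.413 to 0.601 after TNF-α, and that of Nfkb2 per Nfkb1 was 0.377 to 0.466 and 0.727 to 0.750. The level of Nfkbia per Rela was 0.537 to 0.718 in Con, 1.63 to 1.81 after TNF-α and 1.48 to 1.54 after TNF-α+WBT, so that Nfkbia RNA was below that of Rela in Con and above it in both treated groups. Among the IκB genes the share of Nfkbia was 44.0% to 46.5% in Con and 50.6% to 55.5% with TNF-α, that of Nfkbie 6.61% to 11.2% and 14.8% to 20.46%, and that of Nfkbib 16.9% to 21.3% and 10.3% to 10.9%. In protein-coding transcripts only, Nfkb2 lay above Nfkb1, at means of 18.9 against 12.4 FPKM in Con and 43.8 against 12.2 after TNF-α. The protein-coding sum of Nfkb1 depends on how reads were divided among its overlapping transcripts, as described further on. The shares and ratios were not tested.

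**Figure D3:**
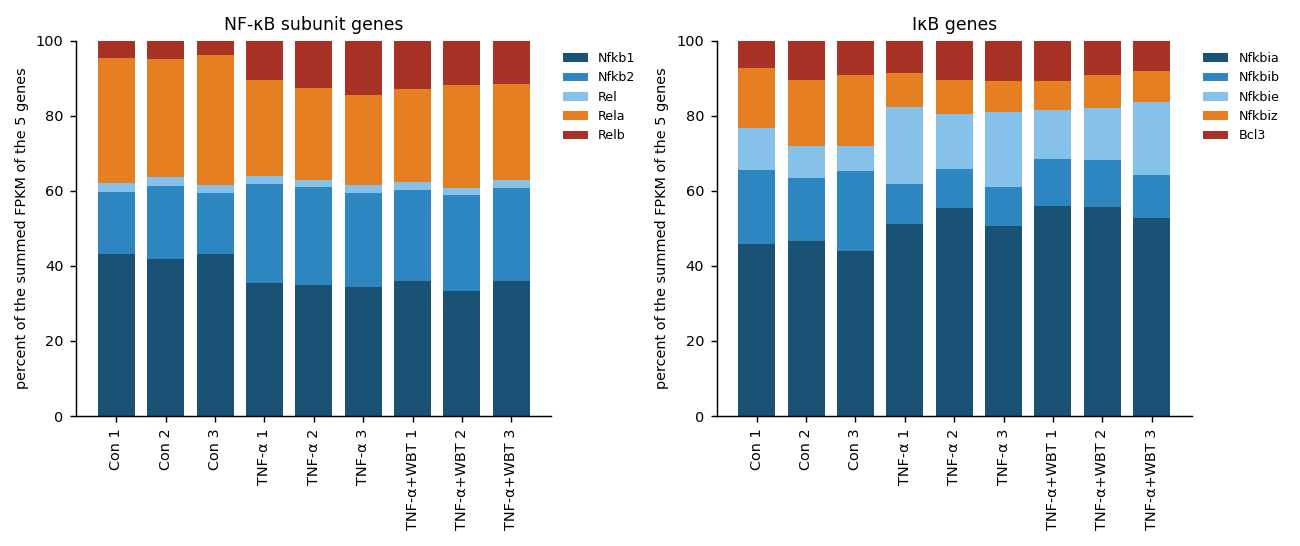
Percent of the summed FPKM of the 5 subunit genes (left) and of the 5 IκB genes (right) that each gene made up in each of the 9 libraries, stacked to 100. The Nfkb2 and Relb bands are wider and the Nfkb1 and Rela bands narrower in the 6 treated libraries than in the 3 Con libraries, and on the right the Nfkbie band is wider and the Nfkbib and Nfkbiz bands narrower.

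The gene values sum over annotated transcripts, and the make-up of these sums differed between members. Transcripts annotated as protein-coding held over 95% of the Nfkbia FPKM in every library and 94.5% to 98.6% of that of Rela. In Nfkb1 they held 15.1% to 31.7%, and transcripts annotated with a retained intron held 54.4% to 67.1%. The latter measured 28.4, 32.1 and 30.01 FPKM in Con and 43.0, 40.8 and 34.7 under TNF-α, and transcripts annotated for nonsense-mediated decay 12.4, 0 and 9.79 against 11.8, 15.1 and 13.3. The protein-coding sum was 9.12, 15.2 and 12.9 FPKM in Con and 11.4, 9.99 and 15.3 with TNF-α, with no separation of the groups. All bases of Nfkb1-207, annotated for nonsense-mediated decay, lie in exons of protein-coding Nfkb1 transcripts. In Con it measured 12.2, 0 and 9.79 FPKM, highest where the protein-coding sum was lowest and 0 where that sum was highest. How far the division of reads between overlapping transcripts set the protein-coding sum was not tested. Nfkb1-202, which has a retained intron, shares 92.5% of its bases with exons of protein-coding Nfkb1 transcripts. Nfkb1-204, of which 1825 of 3383 bases lie outside those exons, measured 12.8, 12.9 and 13.2 FPKM in Con, 17.0, 18.0 and 17.2 after TNF-α, and 16.1, 16.4 and 16.4 after TNF-α+WBT.

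In Nfkbie, protein-coding transcripts held 36.4% to 65.9% of the FPKM in Con and 45.7% to 74.9% with TNF-α. The protein-coding sum was 2.86, 3.11 and 1.25 FPKM in Con, 23.6, 9.95 and 18.4 after TNF-α, and 7.03, 6.38 and 16.1 after TNF-α+WBT, and the retained-intron transcript Nfkbie-202 also lay higher in both treated groups than in Con. In Relb, a transcript annotated as a target of nonsense-mediated decay, Relb-210, held between 1.06 and 9.84 FPKM within the TNF-α group alone. All of its bases lie in exons of protein-coding Relb transcripts.

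**Figure D4:**
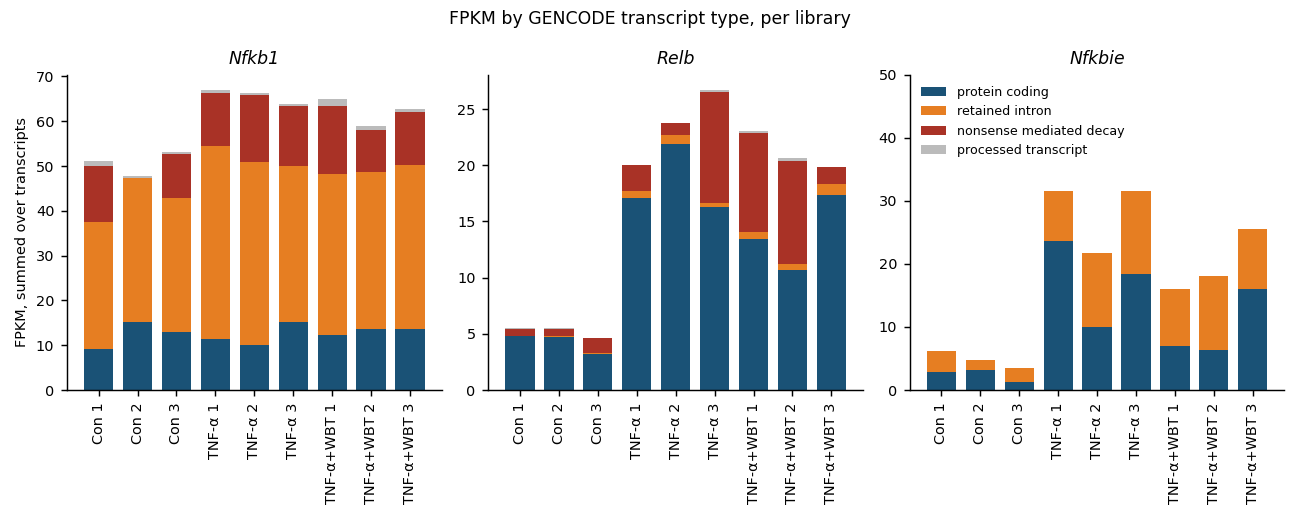
FPKM of Nfkb1, Relb and Nfkbie in each of the 9 libraries, stacked by the GENCODE type of the transcripts. The retained-intron band is the largest part of Nfkb1 in every library, and in Relb the band of nonsense-mediated decay varies widely among libraries of the same group.

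The effect of WBT was addressed by comparing TNF-α+WBT with TNF-α. These libraries of TNF-α are the same that were compared with Con, so the comparisons are not independent. No member passed the adjusted threshold, where 0.00393% of the tested genes did (1 gene), and none passed the thresholds of the study, which 1.12% did. All 10 members had a negative log2 fold change, as did 50.6% of the tested genes, with a median of -0.14 against -0.00195 over all tested genes. At an unadjusted p under 0.05 limma counted 4 members, all of them lower, where 3.43% of the tested genes were lower and 2.88% higher at that level. In 5 members (Nfkb2, Rel, Nfkbia, Nfkbiz and Bcl3) every TNF-α+WBT library lay below every TNF-α library, which held for 5.61% of the tested genes.

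The 4 members with an unadjusted p under 0.05 were Nfkbiz, Nfkbia, Nfkb2 and Bcl3. Nfkbiz had a log2 fold change of -0.32 (95% interval -0.50 to -0.15, unadjusted p = 0.0026, adjusted p = 0.473, limma). That of Nfkbia was -0.19 (-0.31 to -0.08, unadjusted p = 0.00421, adjusted p = 0.559, limma), with means of 80.3 FPKM for TNF-α and 70.1 for TNF-α+WBT. In Nfkb2 it was -0.14 (-0.26 to -0.01, adjusted p = 0.762, limma), and in Bcl3 -0.38 (-0.73 to -0.03, adjusted p = 0.763, limma). The TNF-α+WBT means of these 4 genes were 0.767 (Bcl3) to 0.908 (Nfkb2) of the TNF-α means, and none of the differences held after adjustment. With values not divided by transcript length the unadjusted p of Bcl3 was 0.0815 (-0.20, limma). With protein-coding transcripts only that of Nfkb2 was 0.0743 (-0.20, limma). The unadjusted p of Nfkbiz and Nfkbia stayed under 0.05 in these settings.

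For the other members the intervals included 0. The interval was narrow in Rela (-0.16 to 0.13), Nfkb1 (-0.20 to 0.03), Rel (-0.23 to 0.11) and Nfkbib (-0.22 to 0.11), wider in Relb (-0.40 to 0.12), and widest in Nfkbie (-1.08 to 0.06), whose point estimate of -0.51 was the largest in size. The sign in Nfkb1 turned with protein-coding transcripts only, at 0.13 (-0.34 to 0.60). That in Rela was not stable either, since its value of -0.01 was 0.02 without the first TNF-α library and 0.01 without the first or the third TNF-α+WBT library.

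Set against untreated cells, the TNF-α+WBT group still held the higher levels. Of the 10 members 8 rose and none fell (adjusted p under 0.05), where 2.31% of the tested genes rose and 1.4% fell, and the same number as under TNF-α alone, 5, passed the thresholds of the study, which 2.29% of the tested genes did. Log2 fold changes were 2.05 in Nfkbie, 2.01 in Relb, 1.504 in Nfkbia, 1.29 in Bcl3 and 1.09 in Nfkb2. They were smaller in Nfkbib (0.57), Rel (0.43) and Nfkb1 (0.29). Rela (0.23, adjusted p = 0.112, limma) and Nfkbiz (0.15, adjusted p = 0.42, limma) did not pass. The 9 libraries of Con, TNF-α and TNF-α+WBT are shared between the comparisons. In Nfkbiz the values side by side were 0.47 for TNF-α against Con and 0.15 for TNF-α+WBT against Con. With values not divided by transcript length they were 0.50 and 0.25 (adjusted p = 0.00261 and 0.0765, limma). The calls of Nfkb1 and Rel were near the threshold. Without single libraries the adjusted p was up to 0.06 in Nfkb1 (above 0.05 without the first Con, the first TNF-α+WBT or the third TNF-α+WBT library) and up to 0.0524 in Rel (above 0.05 without any of the TNF-α+WBT libraries). With protein-coding transcripts only the Nfkb1 value was 0.12 (adjusted p = 0.823, limma).

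The genes around the members were read from 5 lists written from general knowledge with earlier results of these data known, so their counts are no independent support. In the TNF receptor complex, which turns receptor binding into a ubiquitin scaffold, 3 of 11 genes rose under TNF-α and none fell, with a list median of 0.15. Over all tested genes 2.94% rose and 1.93% fell, and this background holds for the TNF-α counts of every list. Traf2, an adaptor, rose by 0.61 on the log2 scale (adjusted p = 0.00628, limma) and Birc2, the ubiquitin ligase cIAP1, by 0.41 (adjusted p = 0.0103). Traf5 rose by 0.35 (adjusted p = 0.0392), a call that held under 9 of 21 alternatives and under 2 of the 9 that left out a library. These 2 left out a TNF-α+WBT library, which is outside this comparison. The Traf5 call was lost when any Con or TNF-α library was left out (adjusted p of 0.0812 to 0.13, limma). With WBT none of the list passed, and 2 were lower and none higher at an unadjusted p under 0.05, where 3.43% of all tested genes were lower and 2.88% higher. They were the receptor gene Tnfrsf1a (-0.52, adjusted p = 0.685, groups overlapping), whose direction turned with protein-coding transcripts only (0.06), and Birc2 (-0.17, adjusted p = 0.759).

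Among 11 genes of the kinases upstream of IκB, 2 rose under TNF-α and none fell, with a median of 0.02. Ikbke, which encodes the IκB kinase-related IKKε, rose by 0.46 (adjusted p = 0.0411, limma), which held under 9 of 21 alternatives and 1 of the 9 that left out a library. Chuk, the gene of IKKα, rose by 0.15 (adjusted p = 0.0497), which held under 4 of 21 alternatives and under none that left out a library, and its direction turned with protein-coding transcripts only (-0.16). With WBT 2 of the list were lower at an unadjusted p under 0.05, Tab1 (-0.11, adjusted p = 0.697) and Chuk (-0.09, adjusted p = 0.725), and Chuk turned sign with protein-coding transcripts only (0.26) and with values not divided by transcript length (0.04).

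In the list of IκB turnover, the ubiquitin ligase that marks IκB for degradation and its activating enzymes, 1 of 8 genes fell and none rose under TNF-α, with a median of -0.10. Cul1, the scaffold of the ligase, fell by 0.41 (adjusted p = 0.0418, limma), which held under 9 of 21 alternatives and 1 of the 9 that left out a library. With WBT none of the 8 had an unadjusted p under 0.05. Of 11 other inhibitors 3 rose and none fell under TNF-α, while the median of that list was -0.05. Tnfaip3, the gene of the deubiquitinase A20, went from 3.79 to 4.92 FPKM in Con to 10.0 to 17.1 with TNF-α, a log2 fold change of 1.62 (adjusted p = 0.00681). Tnip1, an A20-binding inhibitor, went from 16.9 to 17.5 FPKM to 42.2 to 45.6 (1.35, adjusted p = 3.49e-06), and Traf3, which restrains the non-canonical branch, rose by 0.61 (adjusted p = 0.0115). The Tnfaip3 call was lost with protein-coding transcripts only (adjusted p = 0.197). With WBT, Tnip1 was the member of this list with an unadjusted p under 0.05, at -0.21 (adjusted p = 0.559).

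Of the 5 lists, the known NF-κB target genes had the highest median. Of 18 listed genes 16 were tested, and 11 rose and none fell under TNF-α, against 2.94% and 1.93% of all tested genes, with a median of 1.40. Of the 2 not tested, Tnf was listed at 0 in all 9 libraries and Lcn2 was above 0 in 1. The tested targets not called were Sod2 (0.07), Ptgs2 (-0.29), Il6, Icam1 and Traf1. The means with TNF-α were 0.0267 FPKM in Il6, 0.0250 in Icam1 and 0.115 in Traf1, and those in Con were lower still. The complement gene C3 went from 8.11 to 9.52 FPKM in Con to 161 to 174 with TNF-α, a log2 fold change of 4.23 (adjusted p = 4.01e-08, limma). Cxcl10, a chemokine of T cells, rose by 4.07 (adjusted p = 0.000123), Mmp9, a matrix protease, by 3.92 (adjusted p = 2.58e-06) and Ccl2, a monocyte chemokine, by 2.88 (adjusted p = 8.55e-08). With WBT none of the 16 passed, and 7 were lower and none higher at an unadjusted p under 0.05, against 3.43% and 2.88% of all tested genes, with a list median of -0.24. The smallest p-values were those of Ccl2, whose libraries went from 262 to 269 FPKM with TNF-α to 198 to 210 after TNF-α+WBT (-0.38, adjusted p = 0.179), and of Vcam1, an adhesion molecule (-0.26, adjusted p = 0.3). Against Con the TNF-α+WBT group had 10 of the 16 higher and 1, Ptgs2 (-0.65), lower, against 2.31% and 1.4% of all tested genes. It had 3 of the 11 other inhibitors and 1 of the 11 receptor complex genes higher, and none of the kinase or turnover lists passed.

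**Figure D5:**
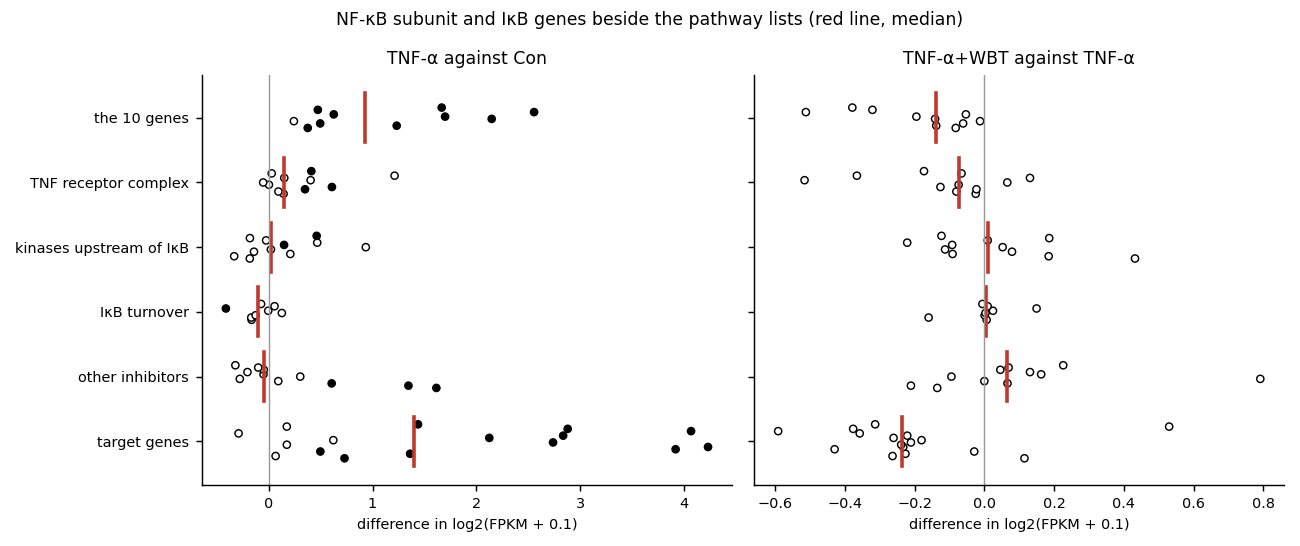
Log2 fold changes (differences in log2(FPKM + 0.1)) of the 10 genes and of the genes of 5 pathway lists under TNF-α against Con (left) and TNF-α+WBT against TNF-α (right); each point is a gene, filled where the adjusted p is under 0.05, and the red line is the median. On the left the medians of the 10 genes (0.93) and of the target genes (1.40) lie well right of 0 and the other medians lie near it; on the right no point is filled, and the medians of these same lists are -0.14 and -0.24.

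The genes whose profile over the 9 libraries was most like that of a member were sought among 12676 genes that averaged 1 FPKM or more. Pearson's r was 0.998 for Nfkb2 with H2-Q4 and 0.997 with Cxcl1, 0.998 for Rel with Ccl2 and 0.997 with Ip6k3, and 0.999 for Nfkbia with both Gpr176 and H2-Q4. The profiles most like Relb were those of Pim1 (0.997) and Dtx3l (0.996), and those most like Bcl3 were Col6a2 (0.993) and Cgn (0.988). For Nfkbie they were Ccdc80 (0.989) and Ctps (0.983), for Nfkbib Ddit3 and Blnk (both 0.986), and for Nfkb1 Baiap2 (0.979) and Ly75 (0.976). Rela was matched less closely, by Spsb1 (0.965) and Prrg1 (0.944), as was Nfkbiz, by Gm37353 (0.963) and Mir22 (0.960). These values describe 9 libraries in 3 groups, so that differences between the groups enter them, and they were chosen as the highest of many.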

How the data were processed

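The authors sequenced poly(A) RNA as paired-end libraries (TruSeq RNA kit, Illumina NovaSeq) and deposited FPKM per gene and per transcript, which their workflow traces to HISAT2, StringTie and Ballgown. Versions and genome build are not given in the sources used here. The identifiers were matched to GENCODE release M21 (GRCm38), and for all 10 members the gene value equalled the sum of its transcripts to 0.001 FPKM. The 25417 genes with values above 0 in 3 or more libraries were fitted on log2(FPKM + 0.1) with limma 3.58.1 (R 4.3.3), an intensity trend and 1 mean per group over all 9 libraries. The fit, tested on simulated data for TNF-α against Con with 25417 genes, recovered known changes. These were larger than most changes of the members, and smaller ones were not simulated. Python 3.11.15, pandas 2.3.3, numpy 2.4.6 and matplotlib 3.10.9 were used.

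Members, gene lists and naming rule were chosen with earlier results of these data known. All members were named. Of each list the rule named at most 4 called genes with the largest change under TNF-α. With WBT it named at most 2 with the smallest unadjusted p under 0.05, and for likeness the 2 highest r. Beyond the rule, target genes not called under TNF-α or not tested were named. Depth was estimated from 10703 single-transcript genes over 1000 bases, in which 45.2% to 48.7% of low values lay within 0.1 of a whole fragment, against 20.0% by chance, so fragment numbers are approximate and cover counting error only. Same-numbered libraries did not deviate together (correlations -0.07 to 0.10), and no replicate block was used. Alternatives covered the pseudocount, the filter, the trend, the groups fitted, 2 scalings, transcript sums, the block and each library left out. Sums of protein-coding transcripts and values not divided by transcript length were added after the data had been seen.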

Additional observations from a re-analysis of the deposited data

How the results depend on the processing

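Of 630 values (30 log2 fold changes of members under 21 alternatives), 610 kept their direction and their side of the threshold. Another 13 lost and 2 gained a call with the same sign, and 5 changed sign. Of the latter, Nfkb1 in TNF-α against Con with protein-coding transcripts only also lost its call (adjusted p = 0.99, limma). The filter, the trend, the groups fitted, the block and a left-out library outside the comparison cannot change a log2 fold change. Transcript sums equalled the gene values of the members to 0.001 FPKM. Direction was thus fixed in advance in those settings. The number of members called was 8 to 10 under the 12 settings that kept all libraries and 9 to 10 with a library left out for TNF-α against Con, 0 throughout for TNF-α+WBT against TNF-α, and 6 to 8 in both cases for TNF-α+WBT against Con. The number at the thresholds of the study stayed at 5, 0 and 5. The numbers did not pair the libraries. With the replicate block 9, 0 and 7 members were called, and over all genes 893, 0 and 701, against 1236, 1 and 942 without it.

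The sign changes were those of Nfkb1 with protein-coding transcripts only, -0.0088 for TNF-α against Con and 0.1289 for TNF-α+WBT against TNF-α, and of Rela in the latter comparison, where values with a library left out ran from -0.0521 to 0.0165. Among pathway genes, with protein-coding transcripts only, Chuk was -0.1625 for TNF-α against Con and 0.2641 for TNF-α+WBT against TNF-α, and Tnfrsf1a 0.0555. With values not divided by transcript length Chuk was 0.0351 in that comparison. In TNF-α+WBT against Con the Nfkbie call was lost with protein-coding transcripts only (adjusted p = 0.0564), that of Nfkb1 likewise (0.12, adjusted p = 0.823), and those of Nfkb1 and Rel under 7 and 5 settings. The causes were not tested.

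In TNF-α+WBT against TNF-α the 95% interval reached from -0.31 to -0.08 in Nfkbia and from -1.08 to 0.06 in Nfkbie.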

Other observations

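Transcripts of Nfkbiz were divided differently among libraries. Nfkbiz-202 was listed at 0 in all Con and TNF-α libraries and in the third TNF-α+WBT library, and at 6.17 and 2.53 FPKM in the first and the second. Nfkbiz-204 was 6.33 to 8.54 FPKM in Con, 8.04 to 11.0 after TNF-α, and 1.36, 3.49 and 7.13 after TNF-α+WBT. Protein-coding transcripts of Nfkbiz together were 8.86 to 10.8 FPKM after TNF-α+WBT and 11.9 to 12.8 with TNF-α.

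Among the Nfkb2 transcripts, Nfkb2-201 was 7.18 to 9.09 FPKM in Con and 18.8 to 21.8 after TNF-α, and Nfkb2-202 was 6.997 to 9.09 and 10.6 to 14.6. Of the Nfkbia RNA, the retained-intron transcript Nfkbia-202 stayed between 0.483 and 1.54 FPKM in all 9 libraries. These transcript values were not tested.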
